A study of Mus musculus with 20 samples.

Results

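The inflammatory cytokine and neutrophil gene set comprised 10 genes: S100a8 and S100a9, Ngp and Camp, Il1b, Il1a, Il1rn, Il18, Il6 and Tnf. All probes whose transcript accession maps to one of these symbols were taken, which gave 12 probes (2 each for Il1a and Il1rn, 1 for every other gene) of the 41174 probes on the array, and 10 of the 16535 genes that could be named. Of these, 9 probes for 8 genes passed the presence filter, as did 27346 probes in all. Both granule genes, Ngp and Camp, and the dimmer Il1rn probe did not pass and are given as detection only. No member reached the calling threshold at any dose. The largest difference was that of S100a9, 2.54-fold higher at 75 mg/kg/day (95% interval 1.48 to 4.34), and the smallest adjusted p of any member probe at that dose was 0.188.

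Liver RNA was profiled from 20 male Muta™Mouse animals (transgenic strain 40.6) aged 25 weeks, 5 in each of 4 groups. Controls received the olive oil vehicle, and the exposed groups received benzo(a)pyrene (BaP), a polycyclic aromatic hydrocarbon, at 25, 50 or 75 mg/kg/day by oral gavage for 28 days, with tissue taken 3 days after the last dose. One array was hybridised for each mouse, with liver RNA in Cy5 and a universal mouse reference RNA, pooled from 11 cell lines, in Cy3 on every array, and dyes were not swapped. The source label of the samples names lung and their tissue label names liver, and the study's design text gives 24 where the sample labels give 25 mg/kg for the lowest dose. All 5 hepatocyte marker genes that could be tested (Alb, Apoa1, Apoa2, Apob and Ttr) were well above background on every array, whereas 3 of the 5 lung epithelial markers (Sftpb, Sftpc and Foxj1) did not pass the presence filter. The other 2 passed it, with Sftpa1 well above background on 16 of 20 arrays and Scgb1a1 on 5.

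Interleukin-1 alpha and beta, interleukin-18, interleukin-6 and tumour necrosis factor are the secreted signals with which macrophages and other cells start an inflammatory response. IL-1 beta and IL-18 are made as precursors that the inflammasome protease caspase-1 cleaves, and the IL-1 receptor antagonist encoded by Il1rn occupies the IL-1 receptor without signalling. S100a8 and S100a9 encode the subunits of calprotectin, a calcium- and metal-binding protein that fills the cytosol of neutrophils and is also made by monocytes, while Ngp and Camp encode proteins of neutrophil granules that are transcribed mainly in the bone marrow. In liver, Kupffer cells are the main resident source of IL-1, IL-6 and TNF, and IL-6 is the chief inducer of the acute phase proteins in hepatocytes.

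S100a8 and S100a9 lie close together on chromosome 3. Their promoters and that of Il1b are shown because S100a9 and Il1b had the smallest p-values of the members at 75 mg/kg/day and S100a8 encodes the partner of S100a9. Each window runs from 250 bases before to 50 bases after the start given by RefSeq (GRCm38.p6), 5′ to 3′ along the gene. Capitals mark matches on either strand to the TATA box letters TATAAA, to the C/EBP-type pattern TTNNGNAA, to the PU.1-type core GAGGAA, to the AP-1-type pattern TGANTCA or to GCGTG, the core of the xenobiotic response element. Motifs of different kinds may overlap, which none of the matches shown did.
S100a8, chr3:90668821-90669120, plus strand: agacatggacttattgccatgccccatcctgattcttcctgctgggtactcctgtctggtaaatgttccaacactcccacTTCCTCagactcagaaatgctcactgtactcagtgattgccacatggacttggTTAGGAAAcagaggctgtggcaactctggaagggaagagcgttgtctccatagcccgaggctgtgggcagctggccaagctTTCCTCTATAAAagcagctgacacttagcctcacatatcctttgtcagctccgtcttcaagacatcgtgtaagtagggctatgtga
S100a9, chr3:90695672-90695971, minus strand: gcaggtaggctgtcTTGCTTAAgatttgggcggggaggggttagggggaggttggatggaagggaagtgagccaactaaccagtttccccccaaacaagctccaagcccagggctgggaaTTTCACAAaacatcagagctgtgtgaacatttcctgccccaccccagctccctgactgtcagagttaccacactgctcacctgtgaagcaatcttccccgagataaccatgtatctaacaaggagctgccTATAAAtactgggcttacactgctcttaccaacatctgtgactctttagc
Il1b, chr2:129371090-129371389, minus strand: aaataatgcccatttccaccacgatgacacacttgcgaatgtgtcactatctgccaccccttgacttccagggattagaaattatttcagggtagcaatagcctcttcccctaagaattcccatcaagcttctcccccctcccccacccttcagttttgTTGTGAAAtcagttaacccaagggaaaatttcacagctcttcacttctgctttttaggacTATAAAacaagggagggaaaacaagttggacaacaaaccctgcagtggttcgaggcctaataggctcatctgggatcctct
The S100a8 and Il1b windows held a TATA box match, beginning 30 and 31 bases before the start, and in the S100a9 window it began at the start given by RefSeq. All 3 windows held the C/EBP-type pattern. S100a8 had 1 such match, S100a9 had 2 and Il1b had 1. The S100a8 window also held 2 matches to the PU.1-type core on the opposite strand, one of which adjoins the TATA box match without overlapping it. None of the 3 windows held the AP-1-type pattern or the response element core. RefSeq gave 12 promoters for the 10 members, of which 9 held the C/EBP-type pattern, 7 the TATA box, 3 the PU.1-type core, 3 the AP-1-type pattern and 1 the response element core. Overlapping Il1rn windows hold the same C/EBP-type matches. By gene, 8 of 10 members held that pattern, and the other counts were the same. Among all 32851 promoters of the same length, 40.7% held the C/EBP-type pattern, 13.6% the TATA box, 28.3% the PU.1-type core, 7.81% the AP-1-type pattern and 32.4% the response element core. The matches are a description of these windows.

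Values are log2 ratios of liver over reference RNA after background correction and within-array loess normalization, so that a value of 0 means equal signal in both RNAs and a difference of 1 between groups is a 2-fold change. A probe was called at an adjusted p below 0.05 (limma, Benjamini-Hochberg over all present probes) together with a fold change above 1.5. The share of spots well above background for liver RNA ranged from 51.9% to 67.5% over the arrays, control replicate 4 being the highest and the other 4 control arrays lying between 51.9% and 54.3%. For replicates 16 to 20, at 75 mg/kg/day, the shares were 53.0%, 61.4%, 59.1%, 56.3% and 61.2%. The arrays lay on 6 slides, of which slides 1 to 3 held 1 array of every group, slides 4 and 5 held arrays at 25 and 75 mg/kg/day alone, and slide 6 held controls and 50 mg/kg/day. Every array at 75 mg/kg/day was at position 4 of its slide and every array at 25 mg/kg/day was at position 2, so position and dose cannot be told apart for these groups.

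At 25 and 50 mg/kg/day no probe on the array was called (0% of 27346 probes), and accordingly 0 of the 9 present member probes. The highest dose had 37 called probes (0.135%), of which 0 were member probes. The linear trend with dose passed an adjusted p of 0.05 for 43 probes (0.157%), again with 0 member probes. By unadjusted p below 0.05, 0 of the 8 present genes were higher at 25 mg/kg/day, against 4.18% of all present probes, and 1 (Il6) was lower, against 3.61%. At 50 mg/kg/day the counts were 0 higher, against 3.76%, and 1 lower, again Il6, against 2.95%. The highest dose had 4 genes higher (S100a8, S100a9, Il1b and Il1a), against 6.52%, and 2 lower (Il6 and Tnf), against 4.7%. The exposed and control arrays overlapped for all 9 member probes at 75 mg/kg/day, while 415 present probes (1.52%) did not overlap. The median log2 difference over the 8 present genes, with 1 probe each, was 0.024, 0.030 and 0.29 at the 3 doses, beside 0.00087, -0.0032 and 0.0025 over all present probes. The 3 doses were compared with the same 5 control arrays.

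**Figure D1:**
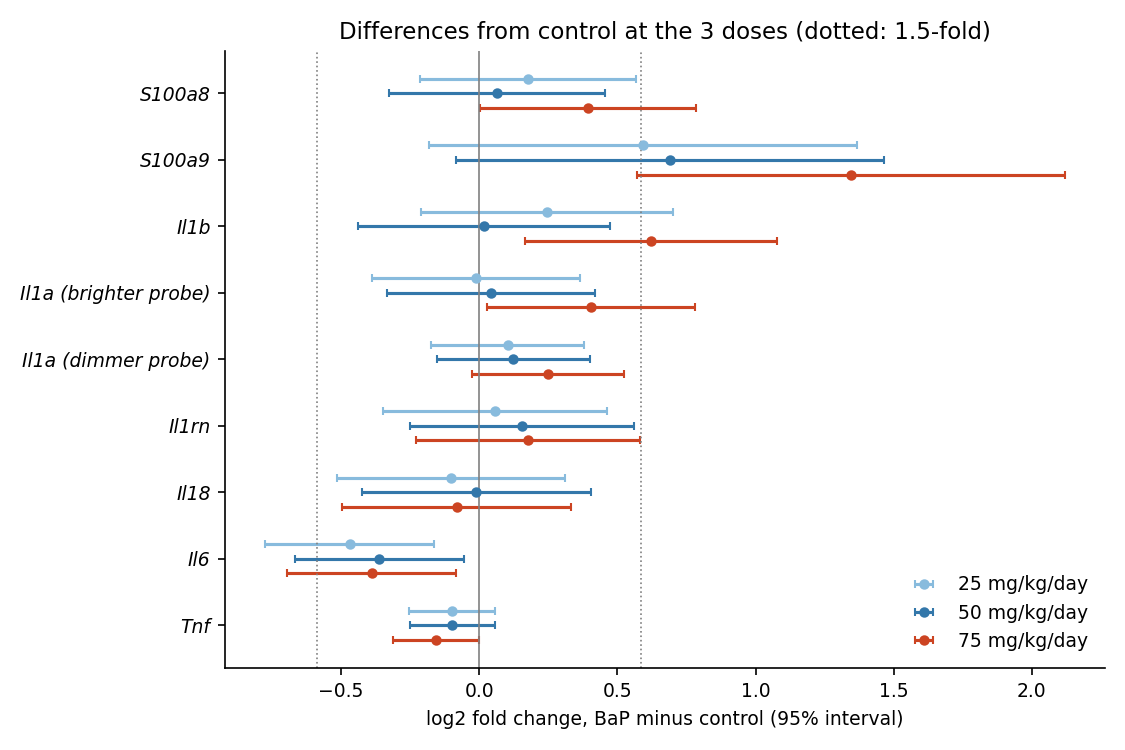
Log2 fold change against control for the 9 present member probes at the 3 BaP doses, with 95% intervals from limma over 20 arrays and dotted lines at 1.5-fold. The S100a9 points move from 0.59 to 0.69 to 1.34 with dose, those of Il1b and Il1a stand away from 0 at 75 mg/kg/day, and those of Il6 lie below 0 at every dose.

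S100a9, the larger subunit of calprotectin, was measured in liver RNA on all 20 arrays. The 5 control arrays read 4.21, 2.88, 3.23, 2.57 and 2.61. The arrays at 25 mg/kg/day read 3.38, 4.16, 3.86, 3.38 and 3.69, and those at 50 mg/kg/day read 4.72, 3.84, 2.74, 3.71 and 3.96. The arrays at 75 mg/kg/day read 4.38, 4.51, 5.31, 3.17 and 4.85. At the highest dose 4 of 5 arrays were above every control array, and replicate 19, at 3.17, lay among the controls. Group means with SD (n = 5) were 3.10 ± 0.67, 3.69 ± 0.33, 3.79 ± 0.71 and 4.44 ± 0.80 in order of dose. Each step between neighbouring groups was smaller than the larger of their SDs. The difference from control at 75 mg/kg/day was 1.34 on the log2 scale (SE 0.37, limma adjusted p = 0.188, unadjusted p = 0.00169), and at 25 and 50 mg/kg/day it was 0.59 and 0.69 (adjusted p = 0.702 and 0.767). The dose trend was 0.41 per 25 mg/kg (SE 0.11, limma adjusted p = 0.209). In bulk liver RNA, a change in the number of cells that express a gene and a change in its RNA per cell cannot be told apart.

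The S100a9 estimate depended on single arrays and on the background correction. Without replicate 19 at 75 mg/kg/day the difference was 1.66 (limma adjusted p = 0.0420), the single instance in which any member was called. Without control replicate 1, the highest control at 4.21, it was 1.62 (adjusted p = 0.0611). With the signals processed by the scanner software it was 0.50 (adjusted p = 0.580). For this probe the reference channel passed as well above background on 13 of 20 arrays, namely 2 of 5 controls, 3 at 25, and 4 each at 50 and 75 mg/kg/day. The liver signal before normalization ran from 302.5 to 785 in controls and from 838 to 2436 at 75 mg/kg/day. It is not adjusted for differences in brightness between arrays, and its separation was not compared with that of other probes. The liver channel alone gave 1.23 after quantile normalization (adjusted p = 0.270). Within slides 1, 2 and 3 the 75 mg/kg/day array exceeded the control array by 1.94, 2.70 and 0.17, and with slide as a block the difference was 1.28 (adjusted p = 0.210).

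S100a8, the partner subunit, differed from control by less than the SD of the 75 mg/kg/day group at every dose. Control arrays read -0.37, -0.31, -0.70, -0.95 and -0.58. Arrays at 75 mg/kg/day read -0.51, -0.37, 0.38, -0.74 and 0.30. Replicates 18 and 20 were above every control array, and the other 3 lay within the control range. Arrays at 25 mg/kg/day ran from -0.68 to -0.20 with a median of -0.35, and those at 50 mg/kg/day from -0.85 to -0.36 with a median of -0.40. The difference at 75 mg/kg/day was 0.39 (SE 0.19, limma adjusted p = 0.442), and that at 25 and 50 mg/kg/day was 0.18 and 0.065. The probe was well above background in liver on 17 of 20 arrays, including 3 of 5 controls and 4 of 5 at 75 mg/kg/day, and its difference at 75 mg/kg/day was 0.25 without replicate 18 and 0.27 without replicate 20.

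S100a8 and S100a9 covaried across the 20 arrays (Pearson r = 0.65, Spearman rho = 0.56). The arrays share the reference RNA and the normalization, and r was 0.38 without replicates 18 and 20, the arrays farthest from the median of S100a8, 0.56 after group means were removed and 0.72 after slide means were removed. S100a9 and Il1b had r = 0.42 (0.15 after group means were removed). S100a8 and Il1b had r = 0.53, which was 0.19 without replicates 18 and 20. Replicates 18 and 20 were the arrays above every control in S100a8, S100a9, Il1b and Il1a alike. This pair was singled out after its values were seen.

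**Figure D2:**
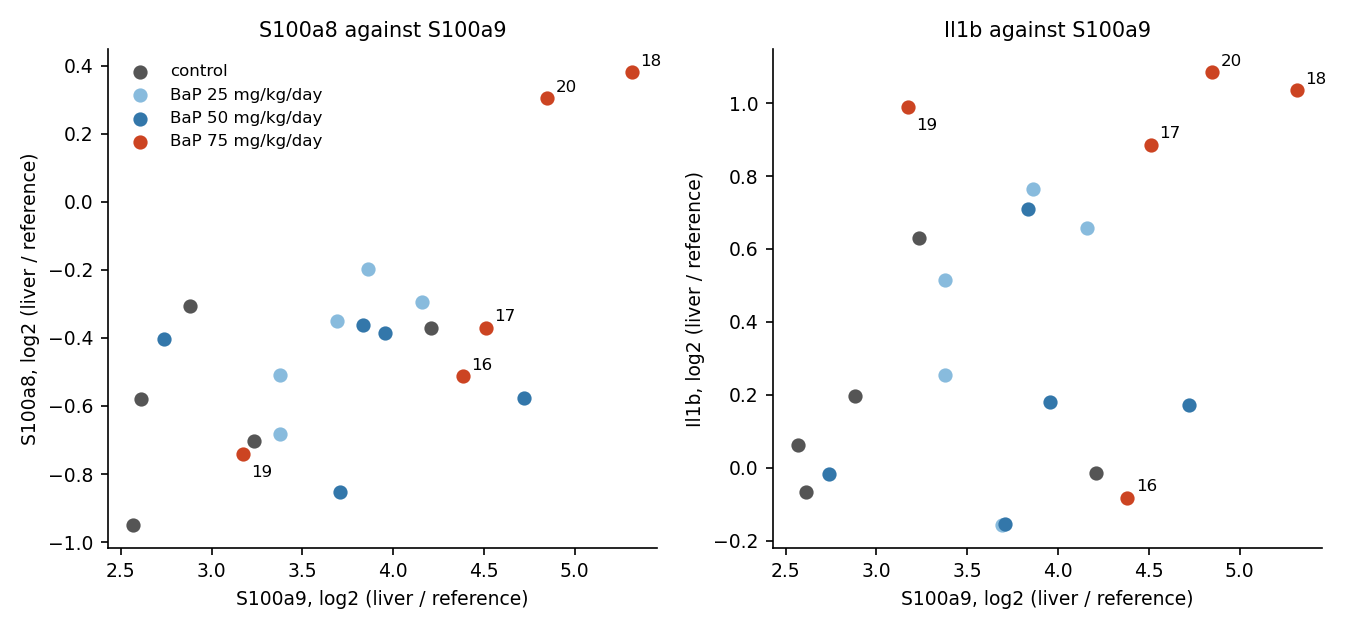
Log2 ratio of liver over reference for S100a8 (left) and Il1b (right) against that of S100a9 on each of the 20 arrays, coloured by dose, with replicate numbers at 75 mg/kg/day. Replicates 18 and 20 stand at the top right of both panels, replicate 19 has high Il1b (0.99) with low S100a9 (3.17), and replicate 16 has high S100a9 (4.38) with low Il1b (-0.082).

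Ngp, a neutrophil granule protein, and Camp, the precursor of the antimicrobial peptide cathelicidin, were each well above background in liver on 1 of 20 arrays. For Ngp this was a control array and for Camp an array at 75 mg/kg/day. Neither probe exceeded the presence limit, which lay between 92.7 and 118 signal units, on 4 arrays of any group. Ngp exceeded it on 2 of 5 control arrays and 2 of 5 at 75 mg/kg/day, and Camp on 2 of 5 in each of these groups. With both groups not well above background, no fold change is given.

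A list of 40 neutrophil genes had probes for 36, of which 23 passed the presence filter and 0 were called by limma at any dose. At an unadjusted p below 0.05 the highest dose had 2 higher and 0 lower, against 6.52% and 4.7% of all present probes. At 75 mg/kg/day 11 were higher and 12 lower, with a median of -0.014 beside 0.0025 over all present probes. The largest differences were those of Lcn2 (lipocalin 2, also made by hepatocytes) at -0.66 (limma adjusted p = 0.774), Gfi1 (a transcription factor of granulocyte development) at -0.29 (adjusted p = 0.539) and Cybb (a subunit of the phagocyte NADPH oxidase) at 0.29 (adjusted p = 0.533). Of 8 mature neutrophil markers, Csf3r, Mmp9 and Fpr1 could be tested (-0.041, 0.040 and 0.23 at 75 mg/kg/day), with 0 called, and Cxcr2, Retnlg, Stfa2l1 and Trem1 did not pass the presence filter. Of 8 markers of immature bone marrow granulocytes, Mpo, Prtn3, Ctsg and Ltf could be tested, all 4 were lower at 75 mg/kg/day (-0.17, -0.046, -0.22 and -0.079) with 0 called, and Elane, Fcnb and Cd177 did not pass the filter. The mean level of the 3 mature markers above the control mean ran from -0.20 to 0.20 in controls and from -0.12 to 0.35 at 75 mg/kg/day.

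Il1b was the second member by p-value at 75 mg/kg/day and was not called. The study, with another model and 1 array left out, reports a significant increase of this gene at that dose. Il1b was measured by 10 spots on each array, 198 of 200 of which were well above background in liver. Control arrays read -0.015, 0.20, 0.63, 0.062 and -0.067. Those at 75 mg/kg/day read -0.082, 0.89, 1.04, 0.99 and 1.09. Thus 4 of 5 exposed arrays were above every control, and replicate 16 was below every control. Arrays at 25 mg/kg/day ran from -0.16 to 0.76 with a median of 0.52, and those at 50 mg/kg/day from -0.15 to 0.71 with a median of 0.17. The difference at 75 mg/kg/day was 0.62, or 1.54-fold (95% interval 1.12 to 2.11; SE 0.22; limma adjusted p = 0.297), and it was 0.84 without replicate 16 (adjusted p = 0.0869). At 25 and 50 mg/kg/day it was 0.25 and 0.017 (adjusted p = 0.789 and 0.994). Within slides 1, 2 and 3 the differences at 75 mg/kg/day were 0.82, 1.10 and -0.067, and the value with slide as a block was 0.66 (adjusted p = 0.219).

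Il1a was read by 2 probes whose liver signal was well above background on 14 and 8 of the 20 arrays. The reference RNA was not well above background for either probe on any array, so the ratio rests on a reference signal at background. On the brighter probe the controls read 0.69, 0.35, 0.36, 0.88 and 0.47. The arrays at 75 mg/kg/day read 0.52, 1.09, 1.14, 0.55 and 1.46. Replicates 17, 18 and 20 were above every control, and replicates 16 and 19 lay within the control range. The difference was 0.40 (SE 0.18, limma adjusted p = 0.412), and on the dimmer probe it was 0.25 (SE 0.13, adjusted p = 0.494). The brighter probe passed as well above background in liver on 2 of 5 controls, 3 at 25, 4 at 50 and 5 of 5 at 75 mg/kg/day. The probes tracked each other over the 20 arrays (r = 0.82), and with scanner-processed signals the differences were 1.57 and 1.58 (adjusted p = 0.359 and 0.248).

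Il1rn, the IL-1 receptor antagonist, had its widest spread at 75 mg/kg/day. Its brighter probe read -0.076, 0.023, -0.39, -0.57 and -0.24 in controls. The values at 75 mg/kg/day were 0.63, -0.26, -0.18, -0.77 and 0.23. Replicate 16 was the highest and replicate 19 the lowest of all 20 arrays. The differences at the 3 doses were 0.058, 0.16 and 0.18 (SE 0.19, limma adjusted p = 0.958, 0.911 and 0.778), and the interval at 75 mg/kg/day ran from -0.23 to 0.58. The dimmer probe was well above background in liver on 1 of 20 arrays.

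Il18, which liver macrophages and epithelia make constitutively, was well above background on 200 of 200 spots. Controls ran from 1.94 to 2.31 with a mean of 2.09 ± 0.17 (SD, n = 5). The means in order of dose were 1.99 ± 0.38, 2.08 ± 0.32 and 2.01 ± 0.42 (SD, n = 5). Replicate 18 was the highest array at 2.70 and replicate 20 the lowest at 1.65, both at 75 mg/kg/day. The groups overlapped at every dose, and the differences of -0.10, -0.011 and -0.082 (limma adjusted p = 0.920, 0.995 and 0.915) had intervals reaching from -0.52 to 0.40.

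Il6, which in the liver drives the acute phase response, had mean ratios below the control mean in all 3 exposed groups, with no group called. Control arrays read -1.20, -0.51, -0.44, -0.80 and -0.40. Arrays at 25 mg/kg/day read -1.29, -1.15, -0.98, -0.98 and -1.29, those at 50 mg/kg/day -1.26, -0.79, -0.83, -1.19 and -1.09, and those at 75 mg/kg/day -0.91, -1.01, -0.86, -1.11 and -1.40. Control replicate 1 lay among the exposed arrays, and at 75 mg/kg/day every array was below the other 4 controls. The differences were -0.47 (SE 0.15, limma adjusted p = 0.637), -0.36 (adjusted p = 0.707) and -0.39 (adjusted p = 0.332), and the order of the exposed groups did not follow the dose. Liver spots were well above background in 34 of 50 control spots, 24 of 50 at 25, 21 of 50 at 50 and 34 of 50 at 75 mg/kg/day, against 200 of 200 in the reference. The 75 mg/kg/day difference was -0.14 in the liver channel alone (adjusted p = 0.779) and -0.16 with slide as a block (adjusted p = 0.605), and within slides 1, 2 and 3 it was -0.21, -0.46 and 0.29. Without control replicate 1 it was -0.52 (adjusted p = 0.0889).

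Tnf had the most uniform ratios of the members. Controls read -0.68, -0.57, -0.54, -0.75 and -0.54, and the arrays at 75 mg/kg/day read -0.76, -0.79, -0.76, -0.74 and -0.81. At that dose 4 of 5 arrays were below every control. The difference was -0.16 (SE 0.074, limma adjusted p = 0.441), and at 25 and 50 mg/kg/day it was -0.098 at each. Liver spots were well above background in 107 of 200 cases, 17 of 50 in controls and 35 of 50 at 75 mg/kg/day, whereas all 200 were so in the reference. In the liver channel alone the difference at 75 mg/kg/day was -0.054 (adjusted p = 0.901). Il6 and Tnf covaried over the 20 arrays, which share the reference RNA and the normalization (Pearson r = 0.68, Spearman rho = 0.49). The r was 0.47 without control replicates 3 and 5 and 0.56 after group means were removed.

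**Figure D3:**
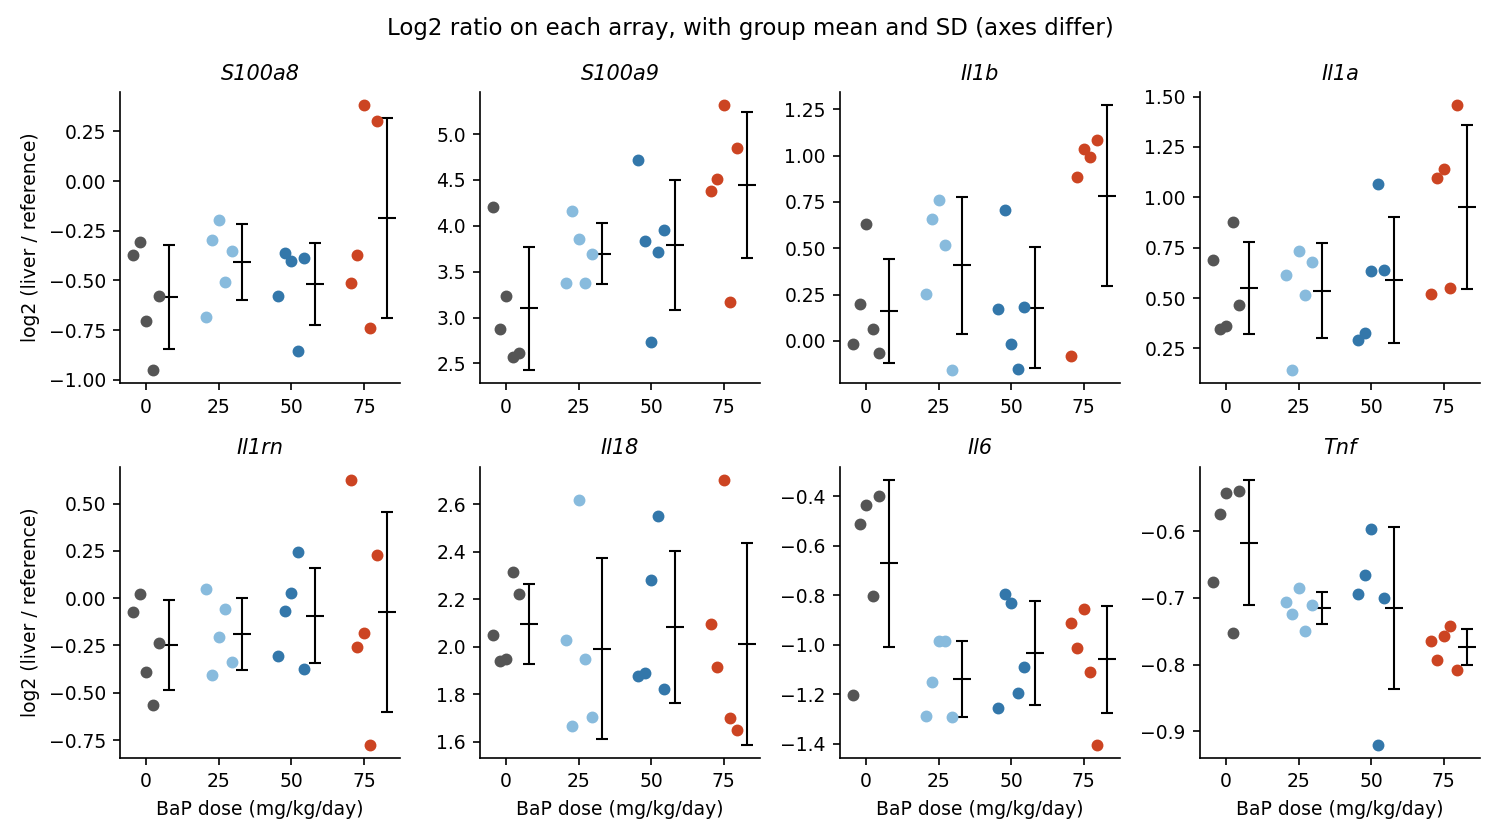
Log2 ratio of liver over reference RNA on each of the 20 arrays for the 8 present members (the brighter probe where there were 2), by BaP dose, with the group mean and SD (n = 5) beside the points and a separate vertical axis for each gene. In each gene the exposed points overlap the controls. Il1b replicate 16 (-0.082) lies apart from the rest of the 75 mg/kg/day group, and S100a9 replicate 19 (3.17) is the lowest of that group.

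For the 4 members with 10 spots per array, the spread between spots can be set beside that between arrays, which with 1 array per mouse holds mouse, labelling, hybridisation and slide together. The median SD between spots was 0.091 for Il1b, 0.050 for Il18, 0.18 for Il6 and 0.13 for Tnf. The SD between arrays of a group was 0.37, 0.34, 0.24 and 0.079 in the same order. An array's value is the mean of its spots, and the median standard error of that mean was 0.030, 0.016, 0.058 and 0.042. The SD between arrays was 12.6 times this error for Il1b, 21.2 times for Il18, 4.08 times for Il6 and 1.87 times for Tnf. S100a9 had an SD between arrays of a group of 0.65, at the 98.4th percentile of all present probes, and Tnf was at the 0.139th percentile. S100a9 was read by 1 spot per array and Tnf by 10, with 107 of 200 Tnf liver spots well above background. These percentiles therefore come from unlike measurements.

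**Figure D4:**
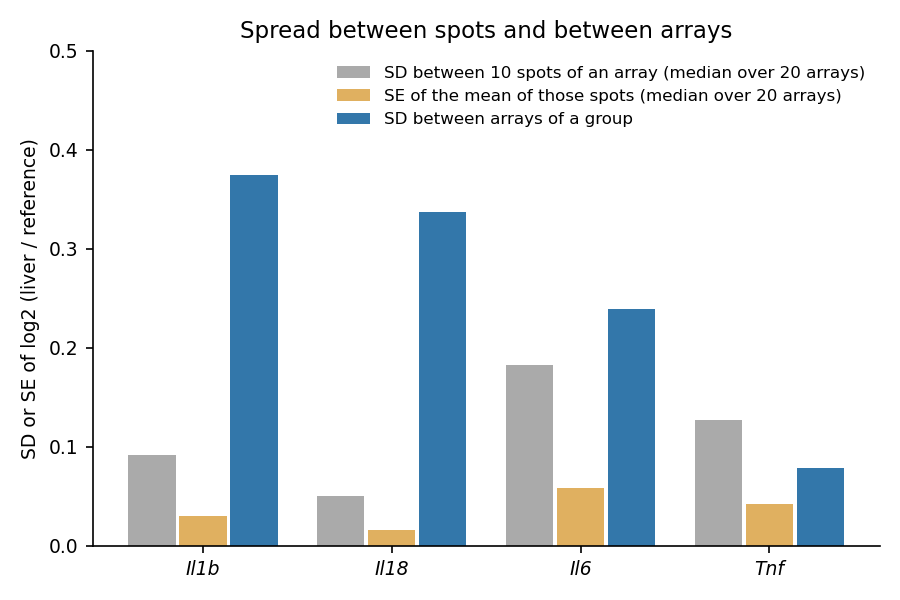
SD of the log2 ratio between the 10 spots of an array (grey, median over 20 arrays), standard error of the mean of those spots (yellow) and SD between arrays of a group (blue) for Il1b, Il18, Il6 and Tnf. The blue bars of Il1b and Il18 (0.37 and 0.34) stand far above both others, and the blue bar of Tnf (0.079) lies between its yellow bar (0.042) and its grey bar (0.13).

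Genes of the pathways in which the members act were examined in 5 further lists, and 0 genes of any of them were called by limma at any dose. At an unadjusted p below 0.05 the highest dose had 0 higher and 1 lower for the calprotectin receptors and for the IL-1 and IL-18 pathway, 1 and 1 for the IL-6 family, 2 and 1 for the TNF pathway, and 3 and 0 for the acute phase genes. Over all present probes the shares were 6.52% higher and 4.7% lower. Of the 6 receptors and co-receptors of calprotectin, 4 were higher and 2 lower at 75 mg/kg/day, with Cd14 (the co-receptor for lipopolysaccharide) at -0.48 (limma adjusted p = 0.365), Cd36 (a scavenger receptor) at 0.47 (adjusted p = 0.556) and Tlr4 at -0.20 (adjusted p = 0.709). Of the 23 IL-1 and IL-18 pathway genes 20 were tested, 9 higher and 11 lower, the largest difference being that of Il1rl1, the IL-33 receptor, at -0.60 (adjusted p = 0.350), followed by Irak2 at -0.33 (adjusted p = 0.534) and Casp4 at 0.32 (adjusted p = 0.636). The IL-6 family list had 12 of 14 genes tested, 6 higher and 6 lower, led by Stat3 at 0.45 (adjusted p = 0.709), Lifr at 0.41 (adjusted p = 0.194) and Il6ra at 0.26 (adjusted p = 0.595). The TNF pathway list had 22 of 25 genes tested, 12 higher and 10 lower, with a median of 0.017. Tnfrsf1a, the main receptor for TNF, was higher than every control on 5 of 5 arrays at 75 mg/kg/day, at 0.65 (SE 0.14, adjusted p = 0.0654). Of all present probes, 1.52% did not overlap with the controls at that dose, in either direction. Zfp36, whose product degrades cytokine mRNA, was at 0.45 (adjusted p = 0.407), and Tnfrsf1b, the other TNF receptor, at -0.31 (adjusted p = 0.433).

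The hepatic acute phase list, made of genes that IL-6 and IL-1 induce in hepatocytes, had all 16 genes tested. At 75 mg/kg/day 15 were higher and 1 was lower, with a median of 0.34 beside 0.0025 over all present probes and 0 called. At 25 mg/kg/day 14 were higher and 2 lower (median 0.30), and at 50 mg/kg/day 15 and 1 (median 0.24). The mean level of the 16 genes above the control mean was -0.70 in control replicate 4, 0.075 to 0.28 in the other 4 controls and 0.019 to 0.40 at 75 mg/kg/day. Without control replicate 4, left out once its values were known, the medians were 0.067, 0.064 and 0.13 at the 3 doses, with 13 genes higher and 3 lower at the highest. With any other single control left out, the median at the highest dose ran from 0.31 to 0.38. Crp was at 0.70 (limma adjusted p = 0.571), the fibrinogen gene Fgg at 0.68 (adjusted p = 0.343) and Saa3 at -0.61 (adjusted p = 0.622). All 5 hepatocyte markers were also higher at that dose, with a median of 0.44 and 0 called, as they were at 25 and 50 mg/kg/day (medians 0.33 and 0.32), and without control replicate 4 their median at the highest dose was 0.26. By unadjusted p below 0.05, 3 of them were higher at the highest dose, against 6.52% of all present probes. That count was 0 without control replicate 4 and 5 without control replicate 1, where the median was 0.61. The 3 largest differences were those of Apoa2 at 0.51, Apoa1 at 0.49 and Alb at 0.44 (lowest limma adjusted p of the list 0.327). The mean level of these 5 markers above the control mean ran from -0.61 to 0.69 on control arrays and from 0.17 to 0.56 at 75 mg/kg/day. The part of this shift in the acute phase values was not tested.

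**Figure D5:**
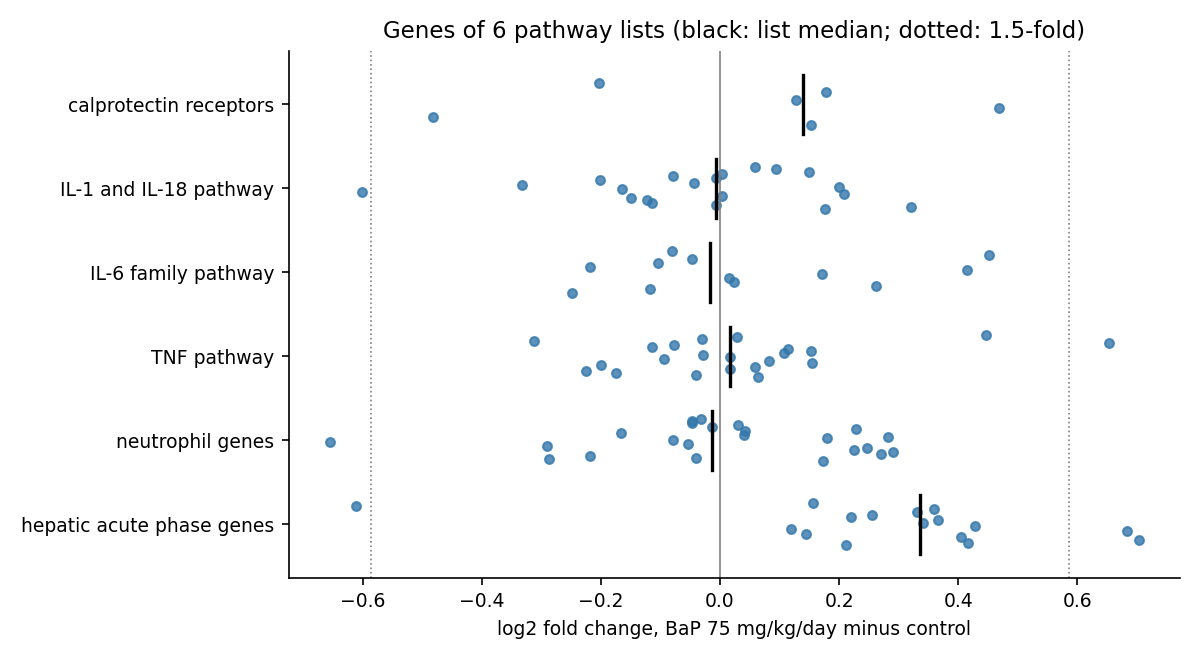
Log2 fold change at 75 mg/kg/day against control for each tested gene of 6 pathway lists, with black bars at list medians and dotted lines at 1.5-fold. The medians of 5 lists lie between -0.016 and 0.14, and that of the acute phase genes is at 0.34.

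Markers of the cells that could carry these transcripts were set beside them. Of 10 Kupffer cell markers, all tested, 9 were higher and 1 lower at 75 mg/kg/day. By unadjusted p below 0.05, 2 were higher and 0 lower, against 6.52% and 4.7% of all present probes. Of the 10 markers 1 was called, against 0.135% of all present probes. This was the scavenger receptor Marco, at 2.19 (SE 0.30, limma adjusted p = 0.00149), while the list median was 0.14. The next largest differences were those of C1qb, a complement subunit, at 0.35 (adjusted p = 0.419) and Cd163, a scavenger receptor, at -0.34 (adjusted p = 0.542). The mean level of the 10 markers ran from -0.20 to 0.16 in controls and from -0.074 to 0.52 at 75 mg/kg/day. Of 8 monocyte markers 7 were tested, 4 higher and 3 lower with 0 called, and 4 higher and 0 lower by unadjusted p below 0.05, against 6.52% and 4.7% of all present probes. The 4 were lysozyme (Lyz2) at 0.80 (limma adjusted p = 0.248), Plac8 at 0.56 (adjusted p = 0.326), Ms4a6c at 0.41 (adjusted p = 0.168) and Ccr2, the monocyte chemokine receptor, at 0.27 (adjusted p = 0.284). Ms4a6c was above every control on 5 of 5 arrays, beside 1.52% of all present probes that did not overlap with the controls in either direction. Its probe and that of Ccr2 were well above background in liver on 16 and 6 of 20 arrays. Csf1r, the receptor for macrophage colony-stimulating factor, was at -0.30, Fn1 at -0.26 and Cx3cr1 at -0.15. Across the 20 arrays, which share the reference and the normalization, Ms4a6c and Ccr2 had r = 0.69 and 0.71 with S100a9, Lyz2 0.33 and Csf1r -0.48. These values include the differences between dose groups, and 68 of 12985 genes had r above 0.7 with S100a9. The remaining monocyte markers are not given here. The mean level of the 7 markers ran from -0.088 to 0.11 in controls and from -0.037 to 0.36 at 75 mg/kg/day. The erythroid markers (4 of 8 tested) were all higher, with a median of 0.29 and the largest differences in Hba-a1, Alas2 and Slc4a1 (0.46, 0.31 and 0.27). Those of platelets (5 tested) had a median of 0.22, led by Ppbp, Gp9 and Pf4 (0.33, 0.25 and 0.22). The B cell markers Cd79b and Ms4a1 were at 0.022 and -0.022, and the 5 T cell markers had a median of -0.14, led by Cd3g, Cd3e and Cd3d (-0.43, -0.22 and 0.15). In these lists 0 genes were called by limma. By unadjusted p below 0.05 there were 2 erythroid and 2 platelet genes higher, against 6.52% of all present probes, and 1 T cell gene lower, against 4.7%. The part of these cells in the S100a8, S100a9 and Il1b values was not tested.

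The genes most like each member were sought by Pearson correlation across the 20 arrays among 12985 other genes, which share the reference and the normalization with it. S100a9 was nearest to Csrp3 (r = 0.84), Sash1 (0.83) and Ppp4r3b (0.81), and S100a8 to Lnx1 (0.80), Cpxm2 (0.79) and Plxdc2 (0.78). For Il1b the nearest were Ext2, Cox5b and Atpsckmt (0.80, 0.80 and 0.79), and for Il1a they were Kit, Cd55 and Fgd5 (0.82, 0.81 and 0.79). Il1rn was nearest to St6gal1 (0.88), Rnf24 (0.76) and Nr2c1 (0.71), Il18 to Styx (0.90), Lrif1 (0.89) and Sav1 (0.89), Il6 to Ebf3 (0.87), 4930432K21Rik (0.85) and Sorcs2 (0.84), and Tnf to Mgarp (0.81), Pole2 (0.81) and Bend6 (0.77). No gene on the neutrophil list was among the 3 nearest of any member. With 23 tested genes of that list among 12985 searched, this absence carries little information. For S100a9, 68 genes had r above 0.7. Of the neutrophil list, Mmp8 (neutrophil collagenase) had r = 0.74 with S100a9 and was above every control on 5 of 5 arrays at 75 mg/kg/day, at 0.28 (limma adjusted p = 0.225). Its liver signal was, however, well above background on 1 of 20 arrays, and 1.52% of all present probes did not overlap with the controls in either direction. Mmp8 was named after its values were seen.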

How the data were processed

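Liver RNA (Cy5) of 20 mice and a common reference RNA (Cy3) were hybridised to 2-colour Agilent arrays. The scanner files as deposited by the authors hold median signal intensities and background intensities for each spot, extracted with Agilent Feature Extraction 10.1.1.1 per the file headers, which name the mm8 build. The authors also deposited a table of LOWESS-normalized log2 ratios, used here as an alternative, whose columns correlated with the ratios computed here at r between 0.994 and 0.996.

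Median intensities had background removed by normexp (offset 50), and loess was run inside each array with control and outlier spots at weight 0, and the spots of a probe were averaged, using limma 3.58.1 in R 4.3.3. Values were read as log2 of liver over reference. A probe was present where it exceeded the mean of the negative control spots, after trimming 5%, plus 3 trimmed SDs on at least 4 of 5 arrays of a group. All 20 arrays entered one fit with 4 groups, whereas the study's methods left out 1 array that they do not name and used MAANOVA, which was not available. Tests were two-sided, and each call is from limma with Benjamini-Hochberg adjustment over all 27346 present probes, read with a fold change above 1.5. For a gene with several probes, the present probe of highest mean intensity stood for it in lists. The script was tested on simulated data. Alternatives were scanner-processed signals, no background correction, the deposited log2 ratios, the liver channel alone, other filters, slide as a block, the dose and control arrays alone, and each array left out.

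Members and gene lists were chosen with earlier results of these data known. Every member probe is described, and for each list the genes called at any dose, the 3 largest differences at 75 mg/kg/day and, for each member, the 3 genes most like it are named, except 1 marker gene that is not reported here. Symbols were matched from transcript accessions to RefSeq (GRCm38.p6), which named 23374 probes. Probe sequences were not used here. Samples of one group are separate mice, and no share of cells was measured. The number of arrays, 5 per group, limits the precision.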

Additional observations from a re-analysis of the deposited data

Results flagged for a closer look

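Over the 12 member probes and 4 groups, 48 groups of 5 arrays were examined for a sample far from the others, and 2 had one, where chance gives about 5%. Il1b in replicate 16 at 75 mg/kg/day was the lowest of its group at -0.082, while the other 4 arrays ran from 0.89 to 1.09. The dimmer Il1a probe in control replicate 4 was the highest of its group at 0.48, while the other 4 controls ran from 0.10 to 0.21. That array also had the highest share of spots well above background (67.5%), and the part of this in the Il1a value was not tested.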

How the results depend on the processing

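Over 28 alternative settings the member values kept their sign in 1185 of 1240 comparisons. Part of these could not change, because a difference from control stays the same when an array of another dose is left out. It also stays the same under another filter or when the arrays of its dose and the controls alone are fitted. Only 1 call was gained, that of S100a9 at 75 mg/kg/day without BaP 75 replicate 19. Members called at 75 mg/kg/day thus numbered 0 to 1 when single arrays were left out, and 0 under every other setting run. Transcripts called at 75 mg/kg/day numbered 62 with scanner-processed signals, 58 with slide as a block, 5 when the arrays of that dose and the controls alone were fitted, and 25 (without replicate 20) to 71 (without replicate 19) when single arrays were left out. At 50 mg/kg/day they numbered 4 with scanner-processed signals, 3 with slide as a block and 0 to 1 with single arrays left out, and at 25 mg/kg/day 0 to 2, the 2 arising without control replicate 3. In the TNF pathway list, 1 gene (Tnfrsf1a) was called at 75 mg/kg/day with no background correction (adjusted p = 0.0385), with slide as a block (adjusted p = 0.0429) and without control replicate 2, control replicate 3, BaP 25 replicate 6 or BaP 75 replicate 19, a range of 0 to 1 when single arrays were left out. These list counts were added after the data were seen. The causes were not tested.

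Uncalled values near 0 changed sign in tested probes in 35 cases. For the brighter Il1a probe at 25 mg/kg/day the difference was 0.91 with scanner-processed signals, 0.086 with no background correction, 0.083 with the authors' log2 ratios, 0.022 in the liver channel alone and -0.061 to 0.088 with single arrays left out, and at 50 mg/kg/day it was -0.075 to 0.13. For Il1b at 50 mg/kg/day it was -0.0039 with scanner-processed signals, -0.010 with the authors' log2 ratios and -0.12 to 0.13 with single arrays left out. For Il18 it was 0.042, 0.11 and 0.12 at the 3 doses in the liver channel alone (trend 0.044 per 25 mg/kg), 0.0084 at 25 and 0.028 at 75 mg/kg/day with slide as a block (trend 0.0051), and -0.13 to 0.054 at 50 mg/kg/day, -0.25 to 0.0082 at 75 mg/kg/day and -0.063 to 0.010 for the trend with single arrays left out. For Il1rn at 25 mg/kg/day the range with single arrays left out was -0.021 to 0.13, and for S100a8 at 50 mg/kg/day -0.027 to 0.15. The groups share no replicate numbers, so arrays could not be paired by replicate. Arrays were matched by slide instead, through the slide block and within slides.

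Dim signal limits most members. Il6, Tnf and Il1a were well above background in liver on part of the spots or arrays, Ngp and Camp on 1 array each, and the S100a9 ratio rests on a reference signal near background on 7 arrays.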
